A study of Homo sapiens with 8 samples.

Results

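The genes described here encode the enzymes that write and erase acetyl and methyl marks on histones and DNA. Members were taken by symbol, from families chosen with earlier results of these data known. They were the lysine demethylases (KDM), the zinc-dependent histone deacetylases (HDAC), the sirtuins (SIRT) and the lysine acetyltransferases (KAT). The SET domain proteins named SETD, the DNA methyltransferases (DNMT) and the TET dioxygenases were also included. Each member had at least 10 counts in at least 2 libraries. Of 59 matching symbols in a table of 23393, 56 were members, and all 56 passed the filter on low counts. DNMT3L (1 to 7 counts), KDM4E (0 counts in every library) and KDM5D did not reach the minimum. RNA-seq was performed on MDA-MB-231, an established line of triple-negative breast cancer cells that depends on external arginine, in 4 groups of 2 libraries. Parental control cells grew in full medium, high-glucose DMEM with serum. Parental starved cells were, by the labels, given arginine deiminase (ADI), an enzyme that degrades arginine, at 0.3 µg/mL for 48 h, whereas the methods describe arginine-starved medium. The ρ0 control and ρ0 starved cells were treated in the same way but lack mitochondrial DNA. They are 1 clone (number 27) of a line kept, by the methods, in ethidium bromide with pyruvate and uridine, so the loss of mitochondrial DNA cannot be told apart from clone or from these supplements. No source states that the 2 libraries of a group came from separate cultures, so the spread between them may be technical.

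Each of these enzymes consumes or binds a metabolite. Acetyltransferases take the acetyl group from acetyl-CoA, whereas sirtuins remove it in a reaction that uses up NAD+ and the HDAC enzymes do so with a zinc ion. Methyltransferases of histones and DNA use S-adenosylmethionine. The KDM1 demethylases oxidise with FAD, and the JmjC demethylases (KDM2 to KDM7) and the TET enzymes, which oxidise methylcytosine, need 2-oxoglutarate (α-ketoglutarate), iron and oxygen. The members were therefore compared by cofactor: 7 of acetyl-CoA, 11 of zinc, 7 of NAD+, 12 of S-adenosylmethionine, 2 of FAD, and 17 of 2-oxoglutarate and iron. Some of them, such as HDAC6 and the mitochondrial sirtuins, act mainly on proteins other than histones. These libraries measure only mRNA, and neither enzyme activity nor any mark. In separate assays, the paper reported less acetyl-CoA, histone H3 acetylation and α-ketoglutarate in arginine-starved MDA-MB-231 cells.

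Libraries held 25259503 to 31022155 counts. Replicates of 3 groups lay close to each other, with a median difference between the members' 2 values of 0.0465 to 0.0903 on the log2 scale, whereas the 2 ρ0 control libraries stood apart, with a median of 0.248. The gap was widest for TET1 (3.18-fold), KDM5B (2.12-fold), KAT2B (1.70-fold), KDM7A (1.66-fold) and SIRT4 (1.65-fold), all higher in replicate 1. Every comparison with ρ0 control cells carries this spread. The tests used 1 estimate of spread per gene for all 4 groups, so it also enters the standard errors and p-values of parental cells. Mesenchymal markers of the line (VIM, CD44, AXL, CAV1, MSN) were at 101 CPM (counts scaled to library size) or more in every library, and ESR1 and PGR were at 0.18 CPM or less. Of 5 epithelial and luminal genes, 4 were higher and 1 lower in ρ0 control than in parental control libraries. CDH1 and EPCAM had at most 0.521 CPM in parental libraries, against 4.31 to 15.9 CPM of CDH1 and 16.4 to 23.7 CPM of EPCAM in ρ0 libraries. KRT19 (44.4 and 46.6 CPM in parental control, 146 and 137 CPM in ρ0 control) and GATA3 (4.38 and 4.65, then 14.5 and 18.6 CPM) were also higher, whereas ERBB3 was lower (23.1 and 23.2, then 3.82 and 4.12 CPM). Their part in the differences between the lines was not tested. In bulk RNA, a change in the share of cells that express a gene and a change in RNA per cell cannot be told apart.

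Promoters are shown for 5 members on which the results turn: TET3, SIRT1 and KDM6B, which rose most in starved parental cells, HDAC11, which fell most there among members of at least 1 CPM, and DNMT1, which rose in parental and fell in ρ0 cells. They are RefSeq sequences of GRCh38.p14, whereas the counts, per the processing notes, were made on hg19. Each runs 5′ to 3′ on the gene's own strand from 250 bases before to 10 bases after the most upstream start site listed. TET3 lies at chr2:73984660-73984919 (plus strand), SIRT1 at chr10:67884406-67884665 (plus), KDM6B at chr17:7833967-7834226 (plus), HDAC11 at chr3:13480056-13480315 (plus) and DNMT1 at chr19:10194944-10195203 (minus). Capitals mark the E-box CACGTG in TET3 and SIRT1 and, on the opposite strand, the E2F motif TTTCGCGC in DNMT1.
TET3: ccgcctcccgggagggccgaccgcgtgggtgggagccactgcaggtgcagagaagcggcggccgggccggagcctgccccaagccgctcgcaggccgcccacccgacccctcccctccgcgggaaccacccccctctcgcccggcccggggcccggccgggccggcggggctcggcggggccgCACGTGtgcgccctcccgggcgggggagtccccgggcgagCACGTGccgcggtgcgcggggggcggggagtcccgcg
SIRT1: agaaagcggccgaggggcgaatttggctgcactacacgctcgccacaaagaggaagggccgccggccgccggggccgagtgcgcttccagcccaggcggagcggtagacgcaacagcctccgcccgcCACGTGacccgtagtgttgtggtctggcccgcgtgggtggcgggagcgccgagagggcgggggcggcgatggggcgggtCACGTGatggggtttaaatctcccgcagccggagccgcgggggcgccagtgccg
KDM6B: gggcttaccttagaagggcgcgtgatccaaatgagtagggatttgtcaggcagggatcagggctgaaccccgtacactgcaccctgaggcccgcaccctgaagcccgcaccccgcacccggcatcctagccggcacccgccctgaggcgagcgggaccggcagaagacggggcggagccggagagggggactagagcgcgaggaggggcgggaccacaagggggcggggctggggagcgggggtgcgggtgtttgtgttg
HDAC11: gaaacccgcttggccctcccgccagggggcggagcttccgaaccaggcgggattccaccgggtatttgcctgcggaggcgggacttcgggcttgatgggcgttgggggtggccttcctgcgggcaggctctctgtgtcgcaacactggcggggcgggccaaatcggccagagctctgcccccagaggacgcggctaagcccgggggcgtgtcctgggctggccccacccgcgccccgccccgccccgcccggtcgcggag
DNMT1: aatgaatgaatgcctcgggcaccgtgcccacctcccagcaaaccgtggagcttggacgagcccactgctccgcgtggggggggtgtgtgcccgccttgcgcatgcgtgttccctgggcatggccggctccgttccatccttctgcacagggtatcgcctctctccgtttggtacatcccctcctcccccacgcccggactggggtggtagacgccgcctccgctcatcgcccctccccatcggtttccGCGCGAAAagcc

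The whole windows of RefSeq, which reach 50 bases past the start, were searched on both strands for 5 motifs. Windows were listed for 51 members (84 windows) and not for HDAC5, SIRT7, KAT6A, KAT8 or SETD1B. The E-box was in 11 of the 84 windows (13.1%), against 7.26% of all 35116 windows. By gene, 10 of 51 members (19.6%) had one, against 8.77% of all genes. These included 5 of 20 members higher in starved parental cells and 2 of 15 lower, counts that were not tested against each other. TET3 and SIRT1 each held a pair, starting 67 and 27 bases before the start in TET3 and 123 and 44 before it in SIRT1. ACGTG, the core of the hypoxia response element, which every E-box also contains, was in 26.2% of member windows and in 21.4% of all. TGATGNAA, a core of the amino acid response element bound by ATF4, was in none of the 84, against 3.62% of all windows, and TTTGGCGC, the other E2F form, was also in none, against 0.652%. TTTCGCGC was found in DNMT1 alone among members (1.19%, against 0.515% of all windows). Member windows held a median of 28 CpG dinucleotides and all windows 14. These are matches of letters and say nothing of binding.

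The first comparison asked how 48 h of arginine starvation changed these enzymes in parental cells. In starved parental cells, 23 of the 56 members were higher (41.1%) and 17 lower (30.4%) at an adjusted p under 0.05 by edgeR's quasi-likelihood test. Of all 15262 tested genes, 30.4% were higher and 35.5% lower. With the additional requirement of a log2 fold change beyond 1, the study's rule for DEGs, 9 members were higher and 7 lower, against 12.7% and 22.1% of all genes. The 9 were TET3, KDM6B, SIRT1, SETD9, KDM7A, HDAC9, KDM6A, KDM5B and SETD7, and the 7 were TET1, HDAC11, HDAC5, HDAC6, DNMT3B, HDAC7 and KAT2A. The median log2 fold change of the members was 0.12 and of all genes -0.07, but the members' median ranged from -0.04 to 0.15 over other scalings and tests. Scaling by total counts shifted the median of all genes by -0.16 and scaling by the upper quartile by -0.12.

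The second comparison was the same in ρ0 cells. Here 16 members were higher (28.6%) and 8 lower (14.3%), against 19.2% and 22.1% of all genes. With total counts alone as the scaling, 12 were higher and 10 lower. Under the rule for DEGs 6 were higher (KDM6B, KDM7A, TET3, SIRT1, HDAC9 and KDM3A) and 1, KAT2B, was lower, against 4.22% and 8.19% of all genes. The counts depended on single libraries: 28 members were higher without ρ0 control replicate 1, 27 without ρ0 control replicate 2 and 9 without ρ0 starved replicate 1, and 5 were lower without ρ0 starved replicate 2. Under the rule for DEGs none was lower without ρ0 control replicate 1, 3 were without ρ0 control replicate 2 and 2 without ρ0 starved replicate 1. Across both lines 11 members rose in each, 6 fell in each, and 12 were called in neither. DNMT1 rose in parental and fell in ρ0 cells, and KDM1B did the opposite. HDAC11 fell in parental cells and just passed the threshold for a rise in ρ0 cells, a call lost in most other fits. A further 20 were called in parental cells alone and 4 (KAT2B, KAT6B, KDM3A and SETD4) in ρ0 cells alone, counts that do not test whether the lines differed. Among all tested genes, too, larger shares were called in parental (30.4% and 35.5%) than in ρ0 cells (19.2% and 22.1%). The overlap between the lines was not counted over all genes, so these numbers show no trait of the members.

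**Figure D1:**
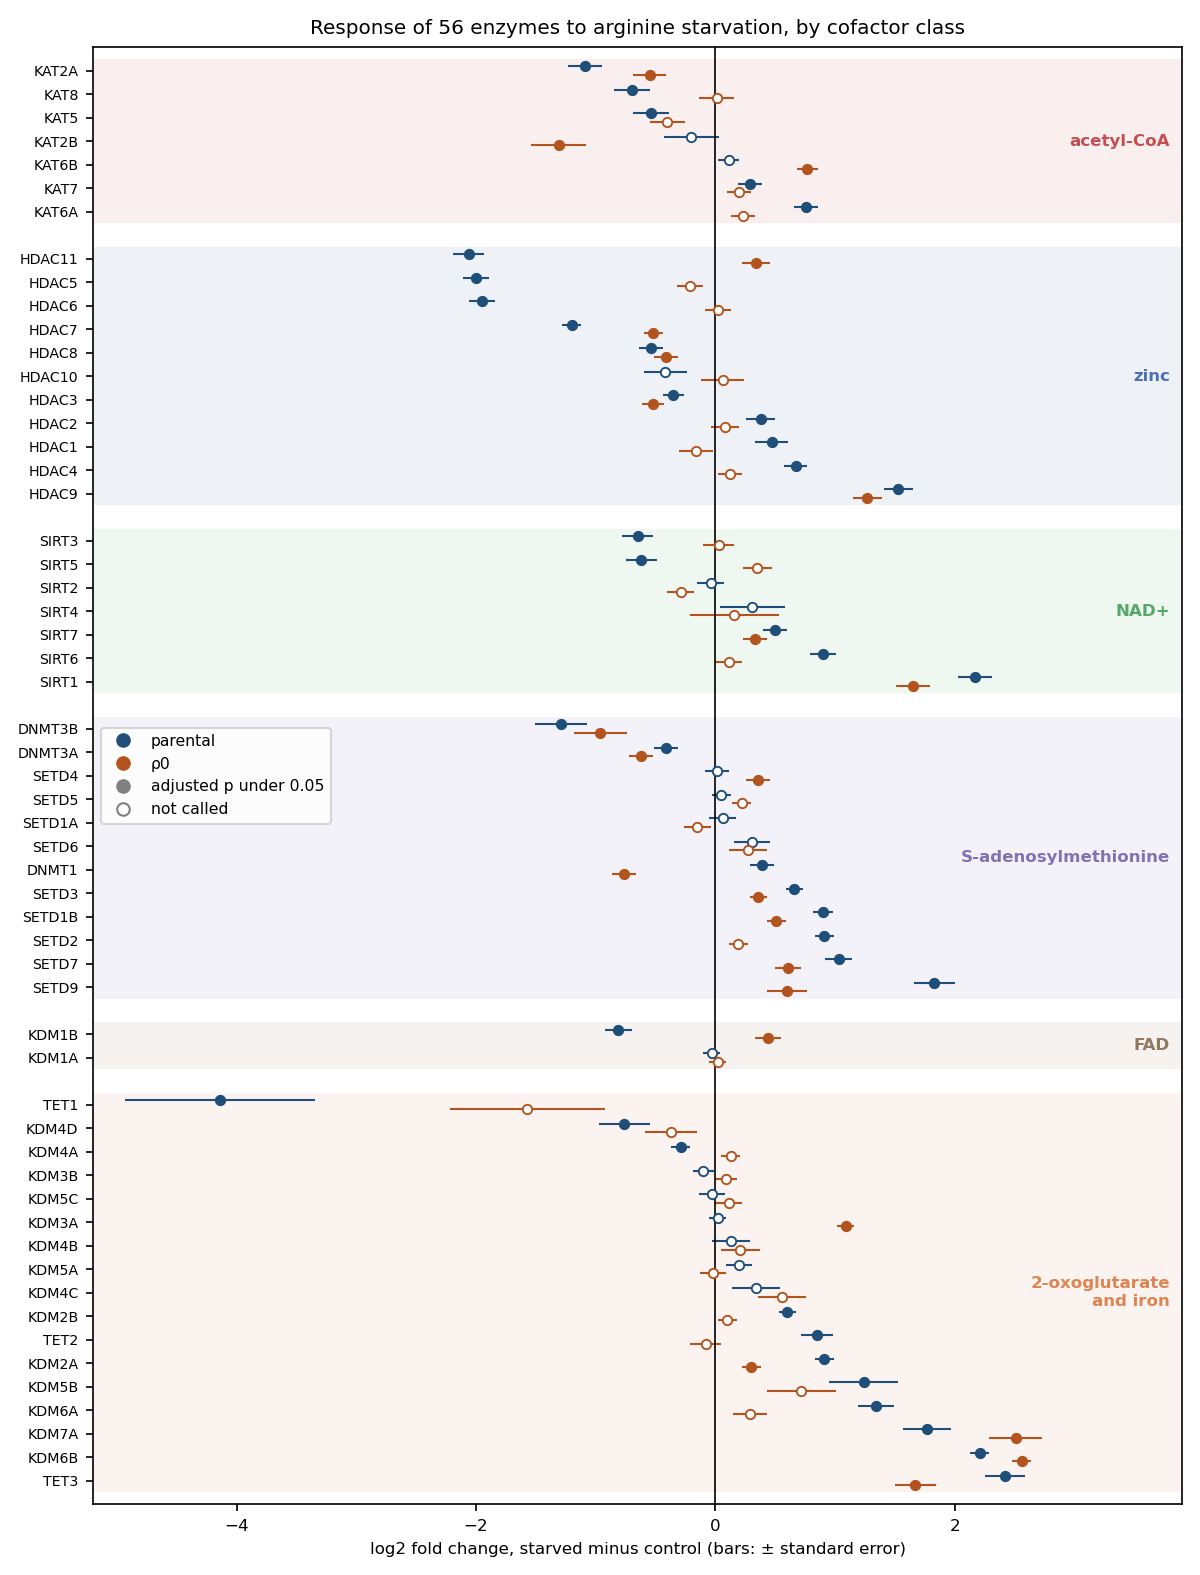
Log2 fold change of each of the 56 enzymes in starved against control cells (x axis) in parental (blue) and ρ0 cells (orange), grouped by cofactor; bars are standard errors and filled points have an adjusted p under 0.05. The zinc class extends to the left in parental cells, with HDAC11, HDAC5 and HDAC6 near -2, and TET3, KDM6B and KDM7A lie at 1.67 or more in both lines.

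Among the 17 enzymes of 2-oxoglutarate and iron, 8 rose and 3 fell in starved parental cells, and 5 rose and none fell in starved ρ0 cells (edgeR, adjusted p under 0.05). These were 47.1% higher and 17.6% lower in parental cells, where 30.4% and 35.5% of all genes were. In ρ0 cells 29.4% were higher and none lower, against 19.2% and 22.1% of all genes. Their median log2 fold change was 0.34 in parental cells (0.18 with total counts as the scaling) and 0.21 in ρ0 cells. The ρ0 median was 0.37 without ρ0 control replicate 1, and 0.13 without ρ0 control replicate 2 or with total counts as the scaling. The summed level of the class went from 1150 and 1080 CPM in parental control libraries to 2040 and 2010 in starved ones, and from 1410 and 1170 to 1810 and 1850 CPM in ρ0 libraries.

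TET3, which oxidises methylcytosine in DNA, was at 87.6 and 76.6 CPM in parental control, 449 and 432 in parental starved, 42.3 and 62.3 CPM in ρ0 control libraries, and its mean in ρ0 starved libraries was 167 CPM ± 2.39 (SD, n = 2). Both starved groups lay above both control groups without overlap. The rise was 5.37-fold in parental cells (log2 2.42 ± 0.17 SE, adjusted p = 2.7e-05) and 3.19-fold in ρ0 cells (log2 1.67 ± 0.17, adjusted p = 0.00044). TET2 rose in parental cells (log2 0.85 ± 0.13, adjusted p = 0.00069) against -0.08 in ρ0 cells (adjusted p = 0.63). TET1 was low throughout, with 91 and 39 counts in parental control, 4 and 2 in parental starved, 59 and 20 in ρ0 control and 13 and 11 in ρ0 starved libraries. Its fall in parental cells was a log2 of -4.14 ± 0.79 (adjusted p = 0.0025). It is named outside the rule for named genes, since its mean was under 1 CPM. In ρ0 cells its log2 fold change was -1.57 ± 0.65 (adjusted p = 0.09). In parental cells TET2 and TET3 thus rose and TET1 fell.

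KDM6B and KDM6A remove methyl groups from lysine 27 of histone H3. KDM6B was at 23.7 and 25.5 CPM in parental control, 116 and 112 in parental starved, 16.5 and 16.4 in ρ0 control and 98.1 and 95.8 CPM in ρ0 starved libraries. It rose 4.64-fold in parental and 5.88-fold in ρ0 cells (adjusted p = 5.9e-06 and 1.6e-05), and the replicates of each group differed far less than the groups. KDM6A, which is X-linked, was at 20.4 and 18.9 CPM in parental control, 49.7 in each parental starved, 109 and 79.7 in ρ0 control and 114 and 117 CPM in ρ0 starved libraries. Its rise in parental cells was 2.53-fold (log2 1.34 ± 0.15, adjusted p = 0.00015), and in ρ0 cells, where the control level was already above the starved parental level, its log2 fold change was 0.29 ± 0.14 (adjusted p = 0.13).

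KDM7A, a demethylase of lysines 9 and 27 of histone H3, was at 37.5 and 31.7 CPM in parental control, 119 and 118 in parental starved, 15.4 and 9.33 in ρ0 control and 68.0 and 73.1 CPM in ρ0 starved libraries. The rise was 3.41-fold in parental and 5.71-fold in ρ0 cells (adjusted p = 0.0002 and 0.00024), from a lower start in ρ0 cells whose 2 libraries differed 1.66-fold. An antisense gene next to KDM7A, and one next to KDM4A, has its own row. No source states strand in the counting, and whether reads were shared between these rows was not examined.

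KDM2A and KDM2B act on lysine 36 of histone H3 and bind unmethylated CpG islands. KDM2A had the highest level per kilobase of exon in the class (mean 43.1 CPM per kb over the 8 libraries). It was at 191 and 181 CPM in parental control, 351 and 349 in parental starved, 381 and 346 in ρ0 control and 437 and 460 CPM in ρ0 starved libraries, so that ρ0 control cells already had the level of starved parental cells. KDM2A rose 1.88-fold in parental cells (adjusted p = 6.7e-05) and 1.23-fold in ρ0 cells (adjusted p = 0.022, lost in 4 of 8 fits without 1 library). KDM2B was at 91.5 and 88.7, 136 and 137, 30.9 and 32.7, and 34.8 and 33.4 CPM in the same order. It rose in parental cells (log2 0.60 ± 0.07, adjusted p = 0.00028), and its log2 fold change in ρ0 cells was 0.10 (adjusted p = 0.32).

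KDM5B, which demethylates lysine 4 of histone H3, rose in parental cells (log2 1.24 ± 0.29, adjusted p = 0.0065), and in ρ0 cells, where its control libraries held 143 and 67.4 CPM, the log2 fold change was 0.72 ± 0.29 (adjusted p = 0.08). KDM3A, a demethylase of lysine 9 of histone H3 that is known to be induced in hypoxia, changed in ρ0 cells: it was at 70.1 and 66.5 CPM in parental control, 70.7 and 67.5 in parental starved, 64.5 and 64.8 in ρ0 control and 137 and 139 CPM in ρ0 starved libraries, a 2.13-fold rise in ρ0 cells (adjusted p = 0.00013). Small falls were called in parental cells for KDM4A (log2 -0.29) and KDM4D (log2 -0.76, at 3.54 CPM or less in every library), of which the first call was lost in 5 of 8 fits without 1 library and the second in 3 of 8. KDM3B, KDM4B, KDM4C, KDM5A and KDM5C were called in neither line, with log2 changes between -0.10 and 0.56 on the log2 scale.

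Zinc-dependent deacetylases held the largest falls among members of at least 1 CPM. In starved parental cells 6 of 11 fell (54.5%) and 4 rose (36.4%), against 35.5% and 30.4% of all genes. Of these, 4 falls (36.4%) and 1 rise (9.09%) passed the rule for DEGs, against 22.1% and 12.7% of all genes. In ρ0 cells 3 fell (27.3%) and 2 rose (18.2%), against 22.1% and 19.2% of all genes. Their median log2 fold change was -0.42 in parental cells and 0.02 in ρ0 cells, where other scalings and tests gave medians from -0.06 to 0.05. The ρ0 median was 0.10 without ρ0 control replicate 1 and -0.20 without ρ0 control replicate 2. The summed level of the class was 796 and 801 CPM in parental control and 865 and 878 CPM in parental starved libraries.

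HDAC11, the only class IV enzyme, which removes long fatty acyl groups, was at 11.9 and 12.9 CPM in parental control, 2.69 and 3.23 in parental starved, 29.3 and 26.3 in ρ0 control and 35.2 and 35.4 CPM in ρ0 starved libraries. All parental starved values lay below, and all ρ0 values above, the parental control values. It fell 4.17-fold in parental cells (log2 -2.06 ± 0.13, adjusted p = 1.9e-05). Its log2 fold change of 0.34 ± 0.12 in ρ0 cells just passed (adjusted p = 0.048) and was lost in 6 of 9 other settings and in 6 of 8 fits without 1 library.

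HDAC5, a class IIa enzyme that shuttles between nucleus and cytoplasm, was at 41.0 and 41.8 CPM in parental control, 10.7 and 10.0 in parental starved, 27.8 and 24.5 in ρ0 control and 23.7 and 21.6 CPM in ρ0 starved libraries. HDAC6, the cytoplasmic deacetylase of tubulin, was at 61.3 and 63.6, 16.6 and 15.8, 94.7 and 76.7, and 86.9 CPM in each of the last pair. Both fell in parental cells, HDAC5 4.01-fold (adjusted p = 1.2e-05) and HDAC6 3.85-fold (adjusted p = 1.3e-05). In ρ0 cells the log2 fold changes were -0.21 ± 0.11 for HDAC5 (adjusted p = 0.16) and 0.02 ± 0.11 for HDAC6 (adjusted p = 0.9).

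HDAC7, another class IIa enzyme, fell in both lines (log2 -1.20 and -0.52), as did HDAC3 (-0.35 and -0.52) and HDAC8 (-0.54 and -0.41), which belong to class I. HDAC9, the remaining class IIa enzyme besides HDAC4, rose 2.89-fold in parental cells (70.7 and 59.9 CPM in control, 190 and 188 CPM in starved libraries) and 2.41-fold in ρ0 cells (50.8 and 62.6 CPM, then 139 and 134 CPM). HDAC4 rose in parental cells (log2 0.67, adjusted p = 0.00071), against 0.12 in ρ0 cells (adjusted p = 0.39). HDAC1, the class I enzyme with the highest level per kilobase of the class (66.3 CPM per kb), was at 118 and 115 CPM in parental control, 159 and 164 in parental starved, 175 and 126 in ρ0 control and 134 and 135 CPM in ρ0 starved libraries. Its rise in parental cells (log2 0.47 ± 0.14, adjusted p = 0.02) and that of HDAC2 (log2 0.38 ± 0.12, adjusted p = 0.028) were each lost in the scalings by upper quartile and by total counts, and without any 1 of the 4 parental libraries. HDAC10 was called in neither line.

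**Figure D2:**
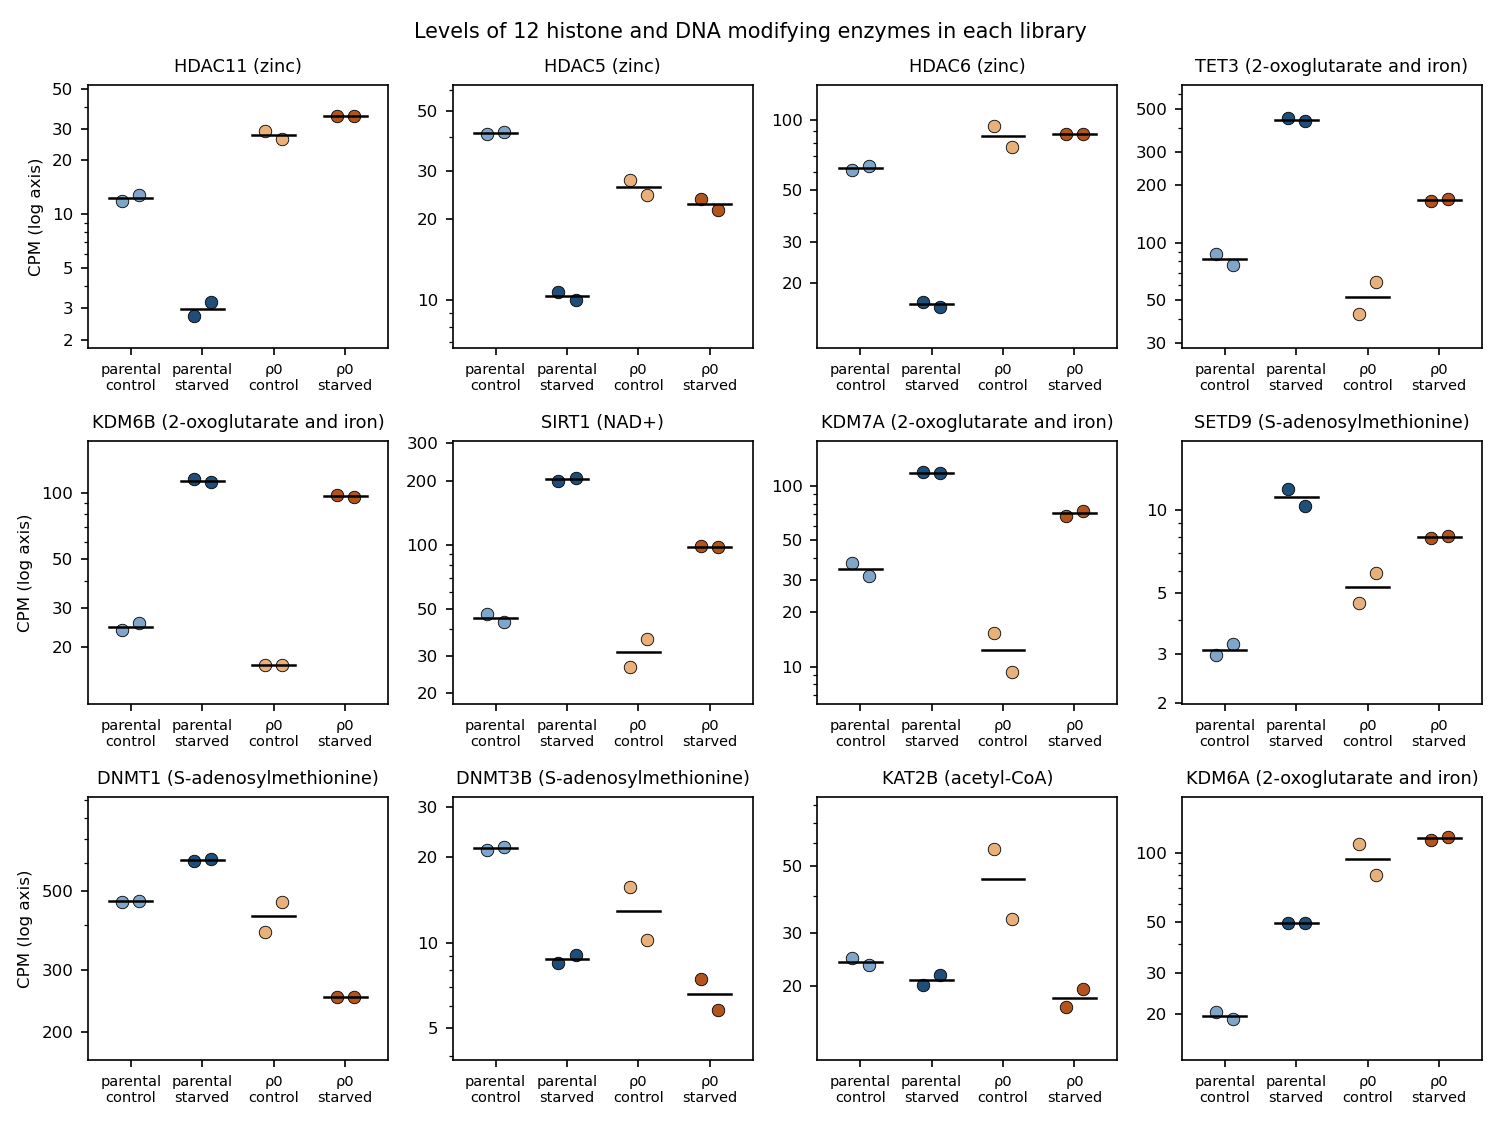
CPM (log axis) of 12 enzymes in each of the 8 libraries, by group; points are libraries and lines are group means of 2. HDAC11, HDAC5 and HDAC6 are lowest in the parental starved libraries, TET3, KDM6B, SIRT1 and KDM7A are higher in both starved groups than in either control group, and the 2 ρ0 control points of KAT2B lie at 57.0 and 33.5 CPM.

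Of the 7 sirtuins, 3 rose (42.9%) and 2 fell (28.6%) in parental cells, against 30.4% and 35.5% of all genes. In ρ0 cells 2 rose (28.6%) and none fell, against 19.2% and 22.1% of all genes. SIRT1, a nuclear deacetylase of histones and transcription factors, was at 47.2 and 43.3 CPM in parental control, 200 and 206 in parental starved, 26.7 and 35.9 in ρ0 control and 98.4 and 97.5 CPM in ρ0 starved libraries. The starved libraries lay above every control library. SIRT1 rose 4.49-fold in parental cells (log2 2.17 ± 0.14, adjusted p = 1.6e-05) and 3.13-fold in ρ0 cells (log2 1.65 ± 0.14, adjusted p = 0.00022).

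SIRT7, found in the nucleolus and with the highest level per kilobase of its class (23.1 CPM per kb), was at 25.9 and 27.7 CPM in parental control, 38.0 and 37.7 in parental starved, 46.2 and 39.6 in ρ0 control and 54.9 and 52.9 CPM in ρ0 starved libraries. It rose in both lines (log2 0.50 and 0.33, the call in ρ0 cells being lost in 6 of 8 fits without 1 library). SIRT6, a chromatin-bound enzyme, rose in parental cells (log2 0.90 ± 0.11, adjusted p = 0.00029) and was at 0.11 on the log2 scale in ρ0 cells (adjusted p = 0.48). The mitochondrial SIRT3 and SIRT5 fell in parental cells (log2 -0.65 and -0.62, adjusted p = 0.0027 and 0.0032). In ρ0 cells, which keep mitochondria without mitochondrial DNA, their log2 fold changes were 0.03 and 0.35, neither of them called. SIRT4, also mitochondrial, and the cytoplasmic SIRT2 were called in neither line. The summed level of the sirtuins was 168 and 172 CPM in parental control and 343 and 348 in parental starved libraries, and SIRT1 made up most of the difference.

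Of the 7 acetyltransferases, 2 rose (28.6%) and 3 fell (42.9%) in parental cells, against 30.4% and 35.5% of all genes. In ρ0 cells 1 rose (14.3%) and 2 fell (28.6%), against 19.2% and 22.1% of all genes. Their median log2 fold change was -0.20 in parental cells and 0.01 in ρ0 cells (-0.06 to 0.04 over other scalings and tests). The ρ0 median had no stable sign, at -0.18 without ρ0 control replicate 1 and 0.25 without ρ0 control replicate 2. KAT2A (GCN5), which acetylates lysine 9 of histone H3 and had the highest level per kilobase of the class (26.5 CPM per kb), was at 104 and 114 CPM in parental control, 51.1 and 50.9 in parental starved, 86.3 and 116 in ρ0 control and 67.4 and 71.0 CPM in ρ0 starved libraries. It fell 2.13-fold in parental cells (log2 -1.09 ± 0.14, adjusted p = 0.0003) and 1.46-fold in ρ0 cells (log2 -0.55 ± 0.14, adjusted p = 0.015). The ρ0 call was lost without either ρ0 starved library, and the log2 value was -0.31 without ρ0 control replicate 2. KAT2B (PCAF), its close relative, was at 24.8 and 23.4 CPM in parental control, 20.2 and 21.8 in parental starved, 57.0 and 33.5 CPM in ρ0 control libraries, and its mean in ρ0 starved libraries was 18.3 CPM ± 1.89 (SD, n = 2). It fell 2.47-fold in ρ0 cells (log2 -1.31 ± 0.23, adjusted p = 0.0038), with a log2 value of -0.88 without ρ0 control replicate 1 and -1.63 without replicate 2. In parental cells its log2 fold change was -0.20 (adjusted p = 0.48).

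KAT8 and KAT5, members of the MYST family that acetylate histone H4, fell in parental cells (log2 -0.70 and -0.54, the call of KAT5 being lost in 4 of 8 fits without 1 library), whereas KAT6A rose (log2 0.76 ± 0.10, adjusted p = 0.00035). KAT7 was called there too (log2 0.29, adjusted p = 0.036). This call was lost in 4 of 9 other settings, upper quartile and total counts among them, and in some fits without 1 library. The log2 value of KAT7 ranged from 0.12 to 0.32 over these fits. KAT6B rose in ρ0 cells (log2 0.77 ± 0.09, adjusted p = 0.0009), from 25.9 and 27.1 to 43.7 and 46.4 CPM, against 39.8 and 35.5 and then 40.7 CPM in each library of parental cells.

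The methyltransferases comprised 9 SETD proteins and 3 DNMT enzymes, which are given in turn. Of the 9 SETD members, 5 rose (55.6%) and none fell in each line (edgeR, adjusted p under 0.05). Among all genes 30.4% rose and 35.5% fell in parental cells, and 19.2% and 22.1% in ρ0 cells. The lowest log2 fold changes of the SETD members were 0.01 in parental and -0.15 in ρ0 cells. Their median log2 fold change was 0.66 in parental and 0.36 in ρ0 cells. SETD9 was at 2.97 and 3.27 CPM in parental control, 11.9 and 10.3 in parental starved, 4.61 and 5.92 in ρ0 control and 7.91 and 8.04 CPM in ρ0 starved libraries, a 3.57-fold rise in parental (adjusted p = 7.9e-05) and a 1.51-fold rise in ρ0 cells (adjusted p = 0.025, lost without either ρ0 starved library). SETD7, which monomethylates lysine 4 of histone H3 and many other proteins, rose 2.04-fold and 1.53-fold. SETD1B, a catalytic subunit of a lysine 4 methyltransferase complex, rose in both lines (log2 0.90 and 0.51), while its homologue SETD1A was called in neither. SETD2, which trimethylates lysine 36 of histone H3, rose 1.89-fold in parental cells (adjusted p = 5.7e-05) and had a log2 fold change of 0.19 in ρ0 cells (adjusted p = 0.094). SETD3, which methylates actin, rose in both (log2 0.66 and 0.36), and SETD4 was called in ρ0 cells (log2 0.36, against 0.01 in parental cells; difference 0.34 ± 0.14, adjusted p = 0.085), a call lost in 2 of 9 other settings and in 4 of 8 fits without 1 library. SETD5 and SETD6 were called in neither.

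DNMT1, which copies methylation to newly replicated DNA, had the highest level per kilobase of all members (80.2 CPM per kb). It was at 465 and 468 CPM in parental control, 607 and 613 in parental starved, 384 and 464 in ρ0 control and 251 CPM in each ρ0 starved library. The parental starved values were the highest and the ρ0 starved values the lowest, without overlap with any other group. The log2 fold change was 0.39 ± 0.10 in parental cells (adjusted p = 0.0098), a call lost with total counts as the scaling and without any 1 of the 4 parental libraries, and -0.76 ± 0.10 in ρ0 cells (adjusted p = 0.0011). S phase genes were counted as well. Of 24 listed, 10 were lower (41.7%) and 1 higher (4.17%) in parental cells (median log2 -0.34), against 35.5% and 30.4% of all genes. In ρ0 cells 24 were lower (median -1.44), against 22.1% of all genes. The part of the S phase genes in the DNMT1 values was not tested.

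DNMT3B, an enzyme of new methylation, was at 21.2 and 21.8 CPM in parental control, 8.51 and 9.07 in parental starved, 15.7 and 10.2 in ρ0 control and 7.44 and 5.80 CPM in ρ0 starved libraries. It fell 2.45-fold in parental (adjusted p = 0.0013) and 1.95-fold in ρ0 cells (log2 -0.96 ± 0.22, adjusted p = 0.011). The ρ0 value was -0.61 without ρ0 control replicate 1, and its call was lost without ρ0 starved replicate 2. DNMT3A, the related enzyme, fell less (log2 -0.41 and -0.62, adjusted p = 0.0064 and 0.0027), from 32.2 and 31.2 to 24.4 and 23.3 CPM in parental and from 14.8 and 14.1 to 9.63 and 9.24 CPM in ρ0 libraries.

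Of the FAD-dependent demethylases of lysine 4 of histone H3, KDM1A (LSD1) was at 150 and 159 CPM in parental control, 151 and 153 in parental starved, 103 and 99.3 in ρ0 control and 102 and 104 CPM in ρ0 starved libraries. Neither line showed a called change on starvation, with log2 fold changes of -0.03 ± 0.07 and 0.02 ± 0.07. KDM1B (LSD2) fell in parental cells (log2 -0.81 ± 0.11, adjusted p = 0.00053), from 40.5 and 35.7 to 21.5 and 22.1 CPM, and rose in ρ0 cells (log2 0.44 ± 0.11, adjusted p = 0.017), from 25.7 and 28.7 to 38.9 and 34.9 CPM.

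The third comparison was between the lines in full medium. In ρ0 control cells 14 of the 56 members were higher and 23 lower than in parental control cells, against 30.5% and 31.8% of all genes. Under the rule for DEGs 2 were higher, KDM6A and HDAC11, and 4 lower, SIRT4, KDM2B, KDM7A and DNMT3A, against 13.6% and 17.3% of all genes. KDM6A was 4.80-fold higher (adjusted p = 1.5e-05), HDAC11 2.24-fold and KDM2A 1.95-fold. SIRT4 was at 3.75 and 4.76 CPM in parental control, 4.44 and 6.06 in parental starved, 1.01 and 0.611 in ρ0 control and 0.744 and 1.08 CPM in ρ0 starved libraries, so that every ρ0 value lay below every parental one. SIRT4 was 5.26-fold lower in ρ0 control cells (adjusted p = 0.00044), KDM2B 2.83-fold (adjusted p = 5.5e-06), KDM7A 2.80-fold (adjusted p = 0.00062) and DNMT3A 2.19-fold (adjusted p = 5.2e-05). Both KDM1 enzymes were also lower, KDM1A 1.53-fold and KDM1B 1.40-fold. Without parental control replicate 1, 9 members were higher and 14 lower. Under the rule for DEGs 4 were higher without ρ0 control replicate 2 and 7 lower without ρ0 control replicate 1.

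The fourth comparison tested whether the response to starvation differed between the lines, as an interaction (the log2 fold change in ρ0 minus that in parental cells). It was higher in ρ0 cells for 12 members and lower for 14 at an adjusted p under 0.05, against 21.6% and 18.8% of all genes. The 3 largest positive differences that were called were those of deacetylases: HDAC11 (2.40 ± 0.18, adjusted p = 0.00024), HDAC6 (1.97 ± 0.16, adjusted p = 0.00028) and HDAC5 (1.80 ± 0.15, adjusted p = 0.00037). Of the 12, 9 had a negative value in parental cells, and besides these 3 they included HDAC7, KAT8, KDM1B, KDM4A, SIRT3 and SIRT5. Since the parental value is subtracted, positive differences favour negative parental values in advance. The share with a negative parental value was not counted over all genes called higher. The calls of KAT8 (in 6 of 8), KDM4A and SIRT3 (in 5 of 8 each) were lost in fits without 1 library. Among the 14, the same held for HDAC1 and SETD1B (6 of 8 each), HDAC4 and KAT6A (5 of 8 each) and KDM2B (3 of 8). The largest negative differences were those of SETD9 (-1.24 ± 0.24, adjusted p = 0.0066), DNMT1 (-1.14 ± 0.14, adjusted p = 0.0012) and KAT2B (-1.11 ± 0.32, adjusted p = 0.03). The call of KAT2B was lost in 6 of 8 fits without 1 library. KDM6A (-1.05 ± 0.20), TET2 (-0.94 ± 0.18) and SIRT6 (-0.79 ± 0.16) also differed, whereas SIRT1 (-0.52 ± 0.19, adjusted p = 0.061) and KDM7A (0.74 ± 0.29, adjusted p = 0.076) were not called. The differences of KDM6B (0.34 ± 0.11, adjusted p = 0.04) and TET3 (-0.75 ± 0.24, adjusted p = 0.038) were each lost without any 1 of 6 libraries. Without ρ0 control replicate 1, 23 members were higher and 22 lower. The number higher was 7 without ρ0 starved replicate 2, and the number lower was 8 without parental control replicate 2 or ρ0 starved replicate 1 and 7 without either parental starved replicate or ρ0 starved replicate 2.

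**Figure D3:**
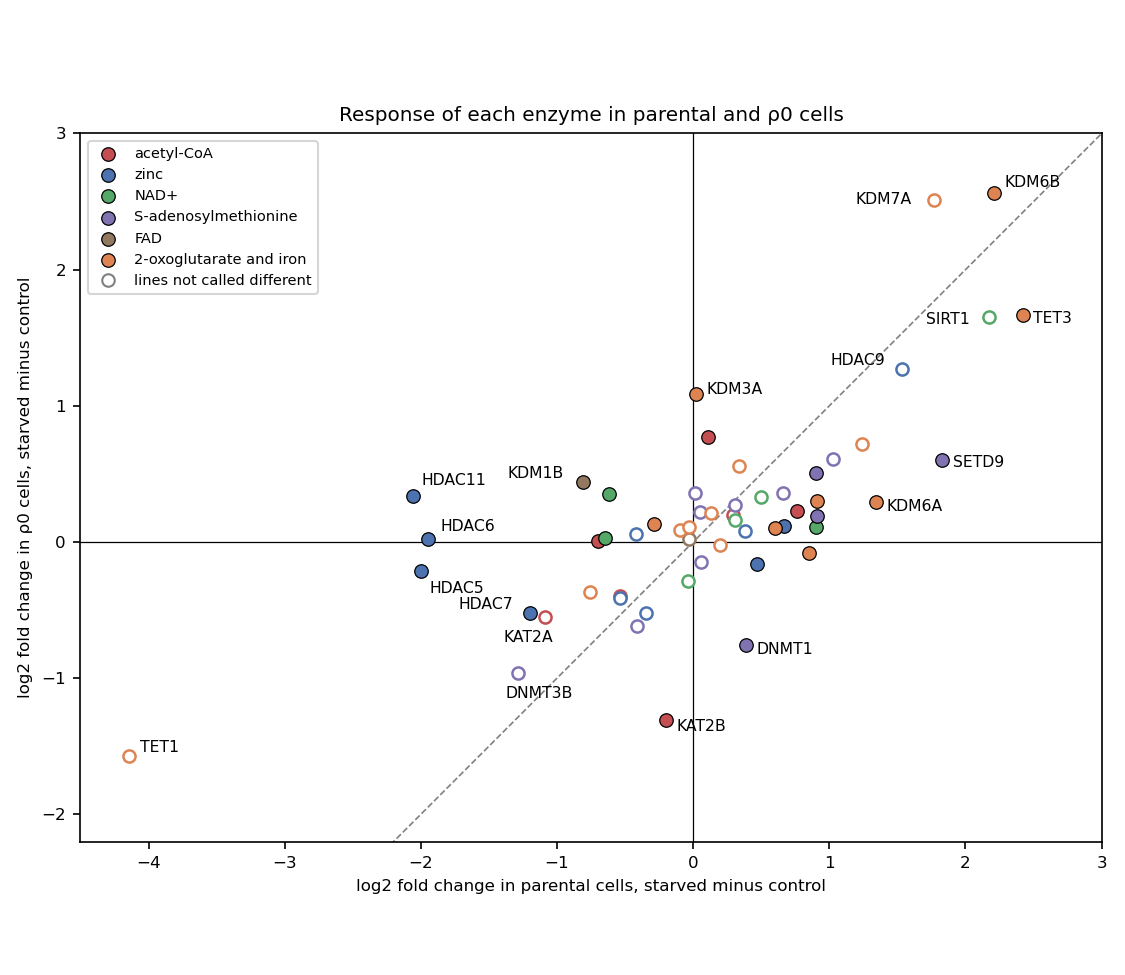
Log2 fold change, starved minus control, of each enzyme in parental (x axis) and ρ0 cells (y axis), coloured by cofactor; filled points differ between the lines at an adjusted p under 0.05 and the dashed line marks equal responses. HDAC11, HDAC6 and HDAC5 lie near -2 on the x axis and near 0 on the y axis, and DNMT1 lies at 0.39 and -0.76.

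Other subunits and enzymes of the same marks were counted as lists (adjusted p under 0.05, edgeR), to be read against the shares of all genes, which were 30.4% higher and 35.5% lower in parental cells and 19.2% and 22.1% in ρ0 cells. Of 21 other acetyltransferases and their subunits, 13 rose (61.9%) and 4 fell (19.0%) in parental cells (median log2 0.88). In ρ0 cells 10 rose (47.6%) and 2 fell (9.52%, median 0.28). EP300, the acetyltransferase of lysines 18 and 27 of histone H3, rose 1.53 on the log2 scale in parental and 0.66 in ρ0 cells, and ING4, a subunit of a KAT7 complex, fell by 1.67 in parental cells. Among 29 deacetylase corepressor subunits 13 rose (44.8%) and 8 fell (27.6%) in parental cells, and in ρ0 cells 9 rose and 4 fell. ARID4B and SAP18 of the SIN3 complex rose in parental cells (log2 1.36 and 1.19), and the histone-binding RBBP7 and the NCoR subunit TBL1X fell (log2 -1.16 and -1.19).

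Of 28 other lysine methyltransferases 11 rose (39.3%) and 8 fell (28.6%) in parental cells, against 30.4% and 35.5% of all genes. In ρ0 cells 12 rose (42.9%) and 5 fell (17.9%), against 19.2% and 22.1% of all genes. EHMT2 (G9a), which dimethylates lysine 9 of histone H3, was at 159 and 163 CPM in parental control, 24.4 and 24.8 in parental starved, 79.7 and 76.3 in ρ0 control and 41.1 and 40.8 CPM in ρ0 starved libraries. It fell in both lines (log2 -2.71 ± 0.08 and -0.93 ± 0.07), and the fall was larger in parental cells (difference 1.78 ± 0.10, adjusted p = 0.00011). KMT2C, of the lysine 4 methyltransferases, rose (log2 1.63 in parental and 0.64 in ρ0 cells). Of 10 arginine methyltransferases tested, 6 rose and 3 fell in parental cells and 3 rose and 1 fell in ρ0 cells. PRMT3 rose (log2 1.74 in parental cells) and PRMT2 fell (log2 -1.42). Other JmjC proteins, a list that also holds KDM7A, had 8 of 15 higher (53.3%) and 4 lower (26.7%) in parental cells. In ρ0 cells 7 were higher (46.7%) and 2 lower (13.3%). JMJD6 was at log2 1.67 in parental and 0.80 in ρ0 cells, and KDM8 at -1.22 in parental cells. Of 17 partners of DNA methylation 6 rose (35.3%) and 5 fell (29.4%) in parental and 5 rose (29.4%) and 7 fell (41.2%) in ρ0 cells. GADD45A, a stress gene linked to active demethylation, was at 63.9 and 67.5 CPM in parental control, 709 and 704 in parental starved, 56.8 and 88.2 in ρ0 control and 345 and 319 CPM in ρ0 starved libraries (log2 3.43 and 2.19).

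Genes of cofactor supply were set beside the enzymes that use them. Of all genes, 35.5% fell and 30.4% rose in parental cells, and 22.1% fell and 19.2% rose in ρ0 cells. Of 15 genes of acetyl-CoA supply tested, 9 fell (60.0%) and 4 rose (26.7%) in parental cells (median log2 -0.57). In ρ0 cells 4 fell (26.7%) and 2 rose (13.3%, median -0.10). ACSS2, which makes acetyl-CoA from acetate in cytoplasm and nucleus, fell in both lines (log2 -2.72 ± 0.14 and -0.99 ± 0.14), and its mitochondrial relative ACSS1 fell in parental cells (log2 -1.56 ± 0.31). SLC16A1, a carrier of lactate, pyruvate and acetate, rose in both (log2 2.35 and 1.86, at 5.27 CPM or less). For NAD+ synthesis and use 7 of 17 fell (41.2%) and 4 rose (23.5%) in parental cells. In ρ0 cells 2 fell (11.8%) and 4 rose (23.5%). NMNAT2 and NAPRT, enzymes of NAD+ synthesis, fell in parental cells (log2 -2.53 and -1.09), with log2 fold changes of -0.09 and 0.11 in ρ0 cells, and SARM1, which cleaves NAD+, rose in parental cells (log2 2.64).

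In the S-adenosylmethionine cycle 11 of 23 fell and 4 rose in parental cells, and 3 fell and 5 rose in ρ0 cells. CTH, the last enzyme of transsulfuration, was at 13.2 and 12.6 CPM in parental control, 112 and 115 in parental starved, 9.68 and 12.9 in ρ0 control and 92.4 and 91.0 CPM in ρ0 starved libraries (log2 3.14 and 3.02). AMD1, which diverts S-adenosylmethionine to polyamines, rose more in parental cells (log2 1.87 ± 0.08) than in ρ0 cells (0.41 ± 0.08; difference -1.46 ± 0.11, adjusted p = 0.00026). MAT1A, a synthase of S-adenosylmethionine usually found in liver, was at 4.44 and 3.30 CPM in parental control and 0.158 and 0.0354 in parental starved libraries and at 0.0414 CPM or less in ρ0 libraries.

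Among 31 enzymes of 2-oxoglutarate, succinate and fumarate 13 fell (41.9%) and 12 rose (38.7%) in parental cells, against 35.5% and 30.4% of all genes. In ρ0 cells 10 fell (32.3%) and 8 rose (25.8%), against 22.1% and 19.2% of all genes. IDH1, the cytoplasmic isocitrate dehydrogenase that makes 2-oxoglutarate, was at 51.1 and 56.6 CPM in parental control, 3.05 and 4.25 in parental starved, 83.1 and 39.7 in ρ0 control and 76.0 and 75.1 CPM in ρ0 starved libraries. Its fall in parental cells (log2 -3.87 ± 0.36, adjusted p = 7.7e-05) differed from the ρ0 value of 0.30 ± 0.30 by 4.17 ± 0.47 (adjusted p = 0.00091). IDH2, the mitochondrial form, fell in both (log2 -2.72 ± 0.18 and -2.47 ± 0.19; difference 0.24 ± 0.26, adjusted p = 0.48), and PSAT1, a serine synthesis enzyme that releases 2-oxoglutarate, rose in both (log2 1.60 and 2.09), from ρ0 control libraries of 70.7 and 160 CPM. Of 25 hydroxylases and other oxygenases that use 2-oxoglutarate outside the member families, 17 fell and 3 rose in parental cells (median log2 -0.97), and 9 fell and 3 rose in ρ0 cells (median -0.24). EGLN3, an oxygen-sensing prolyl hydroxylase, was among the falls (log2 -3.09 ± 0.19 in parental and -0.58 ± 0.13 in ρ0 cells), whereas OGFOD1, a ribosomal prolyl hydroxylase, rose in both (log2 1.74 and 0.76). For FAD, 4 of 5 genes rose and 1 fell in parental cells, and 3 rose in ρ0 cells. FLAD1, the FAD synthase, rose by a log2 of 1.31 ± 0.14 in parental cells, with 0.19 ± 0.14 in ρ0 cells (adjusted p = 0.32; difference -1.11 ± 0.20, adjusted p = 0.0051).

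**Figure D4:**
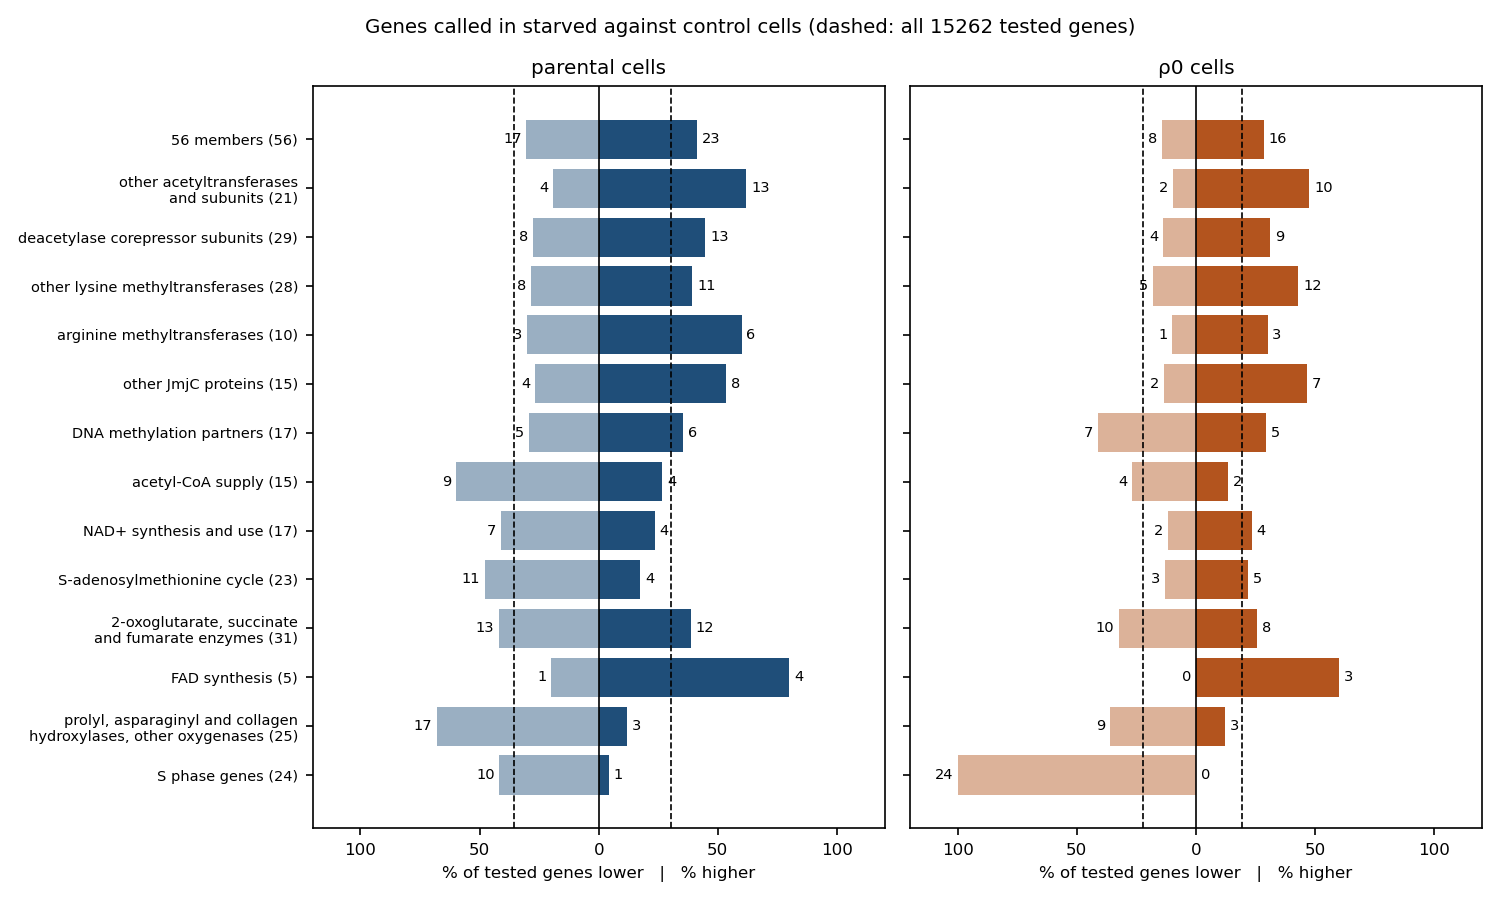
Percentage of tested genes higher (right) and lower (left) in starved than in control cells at an adjusted p under 0.05, for the 56 members and 13 gene lists, in parental (left panel) and ρ0 cells (right panel); figures at the bars are gene counts, numbers in brackets genes tested, and dashed lines all genes. The 25 hydroxylases and other oxygenases reach 17 lower in parental cells, and the S phase genes reach 24 of 24 lower in ρ0 cells.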

How the data were processed

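Gene expression was measured by RNA-seq of total RNA (TRIzol) in 8 libraries, 2 per group, grouped by the labels. The authors deposited read counts by gene symbol in 1 table, not normalized. Bowtie, Partek and hg19 are named in the submitters' processing notes without version or role, and the annotation and strand setting are not given in the sources used here. Strand and multimapping could move counts between overlapping genes and paralogs.

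From these counts, edgeR 4.0.16 (R 4.3.3) was used as follows: genes were kept by filterByExpr on the 4 groups (15262 of 23393, of which 20083 had a count), libraries were scaled by TMM, and a quasi-likelihood model with a mean for each group was applied to the 8 libraries together (residual degrees of freedom 4, prior 3.4, biological coefficient of variation 12.4%). P-values were adjusted by Benjamini-Hochberg over all tested genes, with a threshold of 0.05, and DEGs also had a log2 fold change beyond 1. Each standard error was taken from the F statistic (size of the log2 change over root F). CPM are TMM-scaled, and CPM per kb use the union of coding-transcript exons of GENCODE 29 (GRCh38). P-values rest on 1 estimate per gene of the spread between the 2 libraries of a group, shared by the 4 groups. The script was tested before use on simulated counts with 200 changed genes per comparison. Of changes of 1 on the log2 scale, 60% to 64% were called between groups and 27% for the interaction. Of changes of 2, 87% to 89% and 76% were called. A difference between the lines that was not called may therefore have been missed.

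Members, cofactor classes and gene lists were chosen with earlier results of these data known. Members given with values in every library are the 3 largest rises and falls among called members of at least 1 CPM in each comparison and the member with the highest CPM per kb in each class, and some others are given too. Listed genes are named where they were DEGs in parental cells with at least 1 CPM (at most 2 rises and 2 falls a list). HIF1AN, PCNA and NNMT are in 2 lists each. Alternatives were DESeq2 1.42.0 size factors and test, upper quartile and total-count scaling, no filter, at least 10 counts in every library, limma-voom (limma 3.58.1), a replicate block, each line alone, a threshold of 0.01, and leaving out each library. Promoters were taken from RefSeq (GRCh38.p14), and figures were drawn with matplotlib 3.10.9. Protein sequences were not used here.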

Additional observations from a re-analysis of the deposited data

Results flagged for a closer look

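The response to starvation differed between the lines, by the interaction test of edgeR, for 6 enzymes named for the largest differences, given here as the log2 fold change in ρ0 minus that in parental cells. Positive differences were those of HDAC11 (2.40), HDAC6 (1.97) and HDAC5 (1.80), which each fell in parental cells, with log2 fold changes in ρ0 cells of 0.34, 0.02 and -0.21. Negative differences were those of SETD9 (-1.24), which rose more in parental cells, of DNMT1 (-1.14), which rose in parental and fell in ρ0 cells, and of KAT2B (-1.11). The KAT2B value rests on 2 ρ0 control libraries that differed 1.70-fold, and it ranged from -1.48 to -0.68 over other fits. Its call was lost in most fits without 1 library.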

How the results depend on the processing

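No called member changed sign in any setting. Over other settings than left-out libraries, calls of members kept their side of the threshold in 350 of 359 fits in parental cells, 198 of 216 in ρ0 cells, 289 of 296 between the control lines and 196 of 208 for the interaction; with 1 library left out, 289 of 320, 163 of 192, 260 of 296 and 148 of 208 did. In ρ0 cells, 9 members were higher and 5 lower in a fit to that line alone, and 10 and 5 at a threshold of 0.01; 2 were lower DEGs with total counts alone and 2 with the replicate block. At 0.01, 15 members were lower in ρ0 control cells and 8 had a lower response in ρ0 cells. With 1 library left out, members in starved ρ0 cells numbered 9 to 28 higher, 5 to 12 lower and 0 to 3 lower as DEGs; those in ρ0 control cells 9 to 21 higher, 14 to 29 lower, 2 to 4 higher and 4 to 7 lower as DEGs; and those of the interaction 7 to 23 higher and 7 to 22 lower. Fits without 1 library of a group take its spread from the other groups. The replicate numbers did not pair the samples: correlations of their deviations were -0.0971 to 0.0632, and the replicate block gave 22 higher and 17 lower members in parental cells. The cause of these differences was not tested. With 2 libraries a group, precision is limited by their spread, which was widest in ρ0 control cells.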
